A study of Mus musculus with 15 samples.

Results

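Claudins, the adhesion molecules E-cadherin and EpCAM, and the keratins of simple epithelia were followed across E10.5 yolk sac (YS) erythro-myeloid progenitors (EMPs) that lacked functional *Ezh2* or kept it. The 10 genes, *Cldn3*, *Cldn4*, *Cldn5*, *Cldn6*, *Cldn7*, *Cdh1*, *Epcam*, *Krt8*, *Krt18* and *Krt19*, were chosen by name from measured values, since *Cldn3* had been seen to be higher in Tie2-Ezh2-KO EMPs and the others are further genes of epithelial junctions and keratin filaments. All 10 were present among the 17454 genes measured. The values of Tie2-Ezh2-KO against WT EMPs, and of Tie2-Ezh2-KO against Vav-Ezh2-KO EMPs, which use the same Tie2-Ezh2-KO libraries, are therefore given for these genes as a description with no test. The comparison of Vav-Ezh2-KO with WT EMPs did not choose them and was tested, although it uses the same WT libraries and is not independent for that reason.

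Epithelial sheets are held together by tight junctions, whose strands are built from claudins, by adherens junctions, which rest on the homophilic binding of E-cadherin (*Cdh1*), and by desmosomes, which anchor keratin filaments. EpCAM is a surface adhesion molecule that binds claudins and is found on epithelia and on several kinds of progenitor. EMPs are blood progenitors that arise from hemogenic endothelium of the YS, next to the visceral endoderm, an epithelium that carries many of these genes, and blood cells as a rule carry few of them.

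RNA-seq was performed on EMPs sorted from individual YS of C57BL/6 embryos, and every embryo carried floxed *Ezh2* on both chromosomes. Tie2-Ezh2-KO embryos (n = 5) also carried 1 copy of Tie2-Cre, which is active in endothelium. Vav-Ezh2-KO embryos (n = 5) carried 1 copy of Vav-Cre (Vav-iCre in the text of the study), which is active in blood cells once they have formed. The WT libraries (n = 5) carried no Cre, 3 of them from the Tie2 cross (Tie2-Ezh2-WT) and 2 from the Vav cross (Vav-Ezh2-WT), and were used together. The labels give 500 cells per library, whereas the text of the study states a smaller number. Values of single libraries are listed in the order Tie2-Ezh2-WT replicates 4, 10 and 12 and Vav-Ezh2-WT replicates 4 and 6 for WT, replicates 7, 9, 11, 13 and 17 for Tie2-Ezh2-KO, and replicates 1, 9, 10, 26 and 28 for Vav-Ezh2-KO.

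Values are in RPKM, the reads of a gene divided by its length and by the library's reads on genes. Reads on genes, recovered from the steps between low RPKM values, were 10407398 to 41025074 in the 3 Tie2-Ezh2-WT libraries and 14890780 and 19957939 in the Vav-Ezh2-WT libraries. They were 14818723 to 26825709 in Tie2-Ezh2-KO and 11506895 to 28714656 in Vav-Ezh2-KO libraries. Several of the 10 genes were seen in a few reads only, so read numbers are given beside low values, and because the cDNA was amplified by PCR they cover counting error only. Changes are differences in mean log2(RPKM + 0.2), a scale that understates the change of low genes.

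*Ezh2*, the deleted gene, encodes the methyltransferase of Polycomb repressive complex 2 and lies on chromosome 6 (47530274 to 47595270, GRCm38). The WT libraries held 36.9, 39.5, 30.1, 42.0 and 41.5 RPKM. The Tie2-Ezh2-KO libraries held 27.8, 26.3, 24.8, 29.5 and 26.5 RPKM, all below every WT library. Vav-Ezh2-KO libraries held 33.8, 42.5, 37.8, 38.1 and 34.0 RPKM and overlapped with WT. Cre removes only the exons of the SET domain, and a value for the whole gene does not separate these from the rest, so it does not check the deletion. Reads of the overlapping gene models *Gm26625* and *Gm44282* could not be set apart either. The change was -0.48 (standard error 0.12, limma adjusted p = 0.0418) in Tie2-Ezh2-KO EMPs, and the call was kept in 10 of 21 alternatives (limma adjusted p from 0.0108 to 0.344). It was lost when any of Tie2-Ezh2-KO replicates 7, 11 and 17, Tie2-Ezh2-WT replicates 4 and 10 or Vav-Ezh2-WT replicates 4 and 6 was left out. The call was also lost with no trend in eBayes, with limma-voom and with the Tie2-Ezh2-WT libraries as the only control. Leaving out Tie2-Ezh2-KO replicate 7 and Tie2-Ezh2-WT replicate 4 together lost it too. In Vav-Ezh2-KO EMPs it was -0.02 (standard error 0.11, limma adjusted p = 0.969), and Tie2-Ezh2-KO differed from Vav-Ezh2-KO EMPs by -0.46 (standard error 0.11, limma adjusted p = 0.0269, from 0.0141 to 0.0784 over the alternatives), a call lost with no trend in eBayes and without Tie2-Ezh2-KO replicate 7, 11 or 17 or Vav-Ezh2-KO replicate 9, 10 or 26.

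The study defined EMPs as cells without lineage markers and SCA1 and with KIT, CD41 (*Itga2b*) and the Fc receptors of *Fcgr3* and *Fcgr2b*. As the cells were sorted on the products of *Kit*, *Itga2b*, *Fcgr3* and *Fcgr2b*, detection of these genes does not check their identity. As a description, 10 EMP markers were read (*Kit*, *Itga2b*, *Fcgr3*, *Fcgr2b*, *Ptprc*, *Runx1*, *Myb*, *Gata1*, *Spi1* and *Csf1r*), which were all detected. Their summed level was 545 to 627 RPKM in WT, 499 to 632 RPKM in Tie2-Ezh2-KO and 502 to 679 RPKM in Vav-Ezh2-KO libraries, with *Gata1* the most abundant (mean 177 RPKM). Means of the sort markers in Tie2-Ezh2-KO and WT were 28.0 and 28.6 RPKM (*Kit*), 28.5 and 31.1 RPKM (*Itga2b*), 89.4 and 123.6 RPKM (*Fcgr3*), and 5.60 and 9.07 RPKM (*Fcgr2b*). Of the 10 markers, 3 had a change above 0 in Tie2-Ezh2-KO against WT, and the median change was -0.18. Of the 10, 0 passed the threshold (limma adjusted p under 0.05) in any of the 3 comparisons, with 3, 0 and 3 at an unadjusted p under 0.05 in Tie2-Ezh2-KO against WT, Vav-Ezh2-KO against WT and Tie2-Ezh2-KO against Vav-Ezh2-KO, and 0 in each by limma-voom. Over all genes tested the shares at an unadjusted p under 0.05 were 10.97%, 7.93% and 16.59% in the same order, and the unadjusted counts given below stand beside these shares.

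A pair of libraries, Tie2-Ezh2-WT replicate 4 and Tie2-Ezh2-KO replicate 7, stood apart in markers of visceral endoderm. The 19 markers summed to 270 RPKM in Tie2-Ezh2-WT replicate 4 and to 368 RPKM in Tie2-Ezh2-KO replicate 7. In the other WT libraries the sum was 25.7, 28.4, 25.01 and 32.6 RPKM. The other Tie2-Ezh2-KO libraries held 48.0, 31.8, 29.6 and 43.7 RPKM. Vav-Ezh2-KO libraries held 22.7, 23.0, 19.3, 27.1 and 17.9 RPKM. The most abundant marker over all libraries was *Trf* (transferrin, mean 21.6 RPKM), which other cells also make. Without *Trf* the sum was 221 and 317 RPKM in the libraries that stood apart. The other WT libraries then held 8.15, 5.07, 10.98 and 12.76 RPKM. The other Tie2-Ezh2-KO libraries held 25.5, 11.6, 10.85 and 21.5 RPKM, and Vav-Ezh2-KO libraries spanned 5.75 to 13.04 RPKM. Values given below without the libraries that stood apart still hold this difference in marker sums. *Afp*, the fetal plasma protein alpha-fetoprotein, was at 48.2 and 59.9 RPKM in the libraries that stood apart and at 0.267 to 2.44 RPKM in the others. *Apoa1* was at 47.6 and 71.7 RPKM there and at 0.460 to 4.23 RPKM elsewhere. Among the defining markers, the transcription factors *Hnf4a* and *Foxa2* and the receptor *Lrp2* were at or near 0 in every library, with highest values of 0.128, 0.254 and 0.0446 RPKM. In bulk libraries more cells of a type and more RNA per cell cannot be told apart.

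*Cldn3*, a claudin that seals the space between epithelial cells, was at or near 0 in WT and Vav-Ezh2-KO EMPs and was read in every Tie2-Ezh2-KO library. It lies on chromosome 5 (134986214 to 134987476, plus strand). The WT libraries held 0.152, 0, 0, 0 and 0.198 RPKM, a total of 7 reads. The Tie2-Ezh2-KO libraries held 1.89, 1.45, 0.908, 0.915 and 0.787 RPKM, from 38, 28, 17, 31 and 16 reads. All 5 Vav-Ezh2-KO libraries were at 0. The Tie2-Ezh2-KO libraries thus lay above every other library, with a mean of 1.19 ± 0.467 RPKM (SD, n = 5) against 0.0701 ± 0.0974 RPKM (SD, n = 5) in WT, a difference of 2.37 on the log2 scale. Over the group, the level in Tie2-Ezh2-KO was at least 50.5-fold higher than the floor that 3 reads in all Vav-Ezh2-KO libraries together would set. Tie2-Ezh2-KO replicate 7 was the highest, but the difference was 2.33 without it and Tie2-Ezh2-WT replicate 4. Reads of an antisense gene that overlaps *Cldn3*, *Wbscr25*, could not be told apart from its own, because no strand setting is stated.

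Of the 10 genes, 2 (*Cldn3* and *Epcam*) had every Tie2-Ezh2-KO library above every WT library, as 3.29% of all genes tested had. Against Vav-Ezh2-KO, 3 (*Cldn3*, *Epcam* and *Krt18*) had every Tie2-Ezh2-KO library above, as 3.56% of all genes tested had. These counts come from the comparisons that chose the genes, and nothing is read from them.

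**Figure D1:**
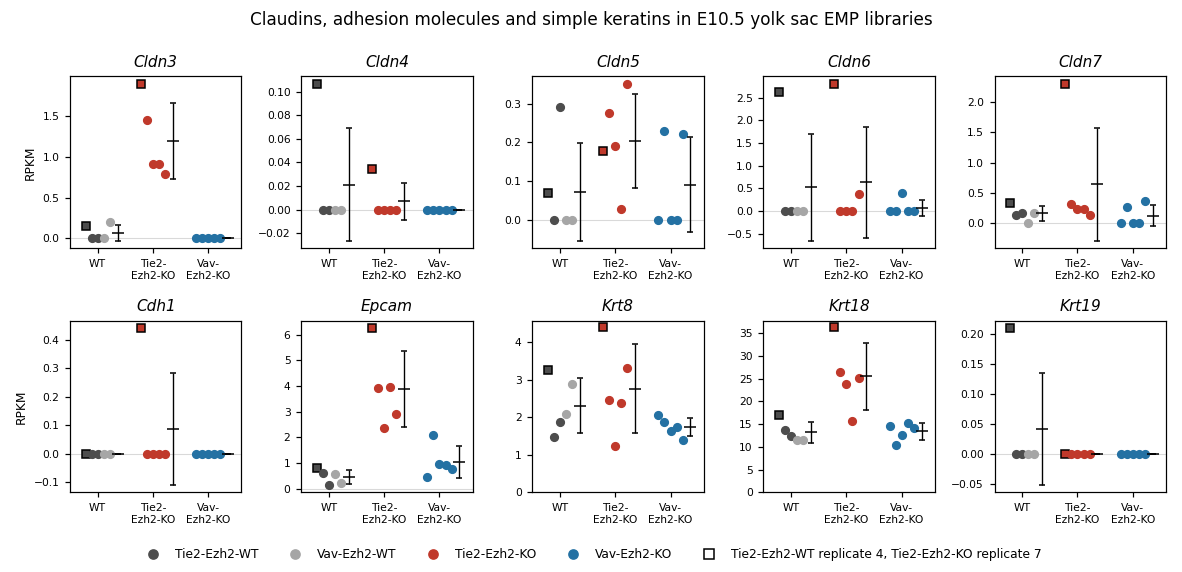
RPKM (vertical axis, linear) of the 10 genes in each library, by group; points are libraries, horizontal marks with bars are mean ± SD (n = 5 per group), and squares mark Tie2-Ezh2-WT replicate 4 and Tie2-Ezh2-KO replicate 7. *Cldn3* and *Epcam* were higher in all 5 Tie2-Ezh2-KO libraries than in all WT libraries, whereas *Cldn6* stood out in both square-marked libraries, and *Cldn7* and *Cdh1* in Tie2-Ezh2-KO replicate 7.

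The other claudins among the 10 genes did not share this pattern. *Cldn4*, a claudin of tight epithelia that lies 39.3 kb from *Cldn3* on the opposite strand, was read in 2 libraries only, at 0.106 RPKM (2 reads) in Tie2-Ezh2-WT replicate 4 and at 0.0347 RPKM (1 read) in Tie2-Ezh2-KO replicate 7. It did not pass the filter of 0.2 RPKM in any comparison. *Cldn5*, the claudin of endothelial tight junctions, was at 0 to 0.293 RPKM in WT, 0.0263 to 0.351 RPKM in Tie2-Ezh2-KO and 0 to 0.230 RPKM in Vav-Ezh2-KO libraries, with at most 17 reads in a library, and its groups overlapped.

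*Cldn6*, a claudin of embryonic epithelia, was highest in the libraries with high endoderm markers, of either genotype. It was at 2.62 RPKM (41 reads) in Tie2-Ezh2-WT replicate 4 and at 0 in the 4 other WT libraries. It was at 2.79 RPKM (67 reads) in Tie2-Ezh2-KO replicate 7 and 0.371 RPKM (9 reads) in replicate 17, and at 0 in replicates 9, 11 and 13. Among Vav-Ezh2-KO libraries it was read in replicate 10 only, at 0.394 RPKM (10 reads).

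*Cldn7*, a claudin that binds EpCAM at the lateral membrane, was at 2.29 RPKM (53 reads) in Tie2-Ezh2-KO replicate 7. The other Tie2-Ezh2-KO libraries held 0.315, 0.232, 0.231 and 0.128 RPKM. WT libraries spanned 0 to 0.331 RPKM, with the highest value in Tie2-Ezh2-WT replicate 4, and Vav-Ezh2-KO libraries 0 to 0.3595 RPKM. Apart from replicate 7, the Tie2-Ezh2-KO libraries lay within the WT range.

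*Epcam* (chromosome 17, 87635979 to 87651127) was read in every library. The WT libraries held 0.793, 0.614, 0.154, 0.554 and 0.219 RPKM, from 9 to 20 reads. Tie2-Ezh2-KO libraries held 6.24, 3.91, 2.36, 3.94 and 2.93 RPKM, from 72 to 218 reads. Vav-Ezh2-KO libraries held 0.464, 2.08, 0.950, 0.928 and 0.744 RPKM, from 22 to 79 reads. All Tie2-Ezh2-KO libraries lay above all others, and the Vav-Ezh2-KO libraries overlapped with WT, with 3 of 5 above the highest WT library. The means were 3.87 ± 1.48 RPKM (SD, n = 5) in Tie2-Ezh2-KO and 0.467 ± 0.272 RPKM (SD, n = 5) in WT, a ratio of 8.30, and the log2 difference of 2.65 was 2.64 without the libraries that stood apart. Against Vav-Ezh2-KO the ratio of means was 3.75 and the log2 difference 1.78.

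*Cdh1*, the core of the adherens junction of epithelia, was listed at 0 in 14 of the 15 libraries. It was read only in Tie2-Ezh2-KO replicate 7, at 0.441 RPKM (31 reads at the gene length assumed). *Cldn3* and *Epcam* were therefore read in 4 Tie2-Ezh2-KO libraries in which *Cdh1* was not detected at this depth.

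The type I keratin *Krt18* was the most abundant of the 10 genes per length, and its type II partner *Krt8* lies next to it on chromosome 15. For *Krt18* the WT libraries held 17.02, 13.7, 12.4, 11.5 and 11.6 RPKM. Tie2-Ezh2-KO libraries held 36.4, 26.5, 23.9, 15.7 and 25.1 RPKM. Vav-Ezh2-KO libraries held 14.6, 10.4, 12.6, 15.3 and 14.1 RPKM. The Tie2-Ezh2-KO libraries lay above all WT libraries except replicate 13, which lay below Tie2-Ezh2-WT replicate 4. The means were 25.5 ± 7.42 RPKM (SD, n = 5) and 13.2 ± 2.29 RPKM (SD, n = 5), a ratio of 1.93, and the log2 difference of 0.90 was 0.85 without the libraries that stood apart. Against Vav-Ezh2-KO the groups did not overlap, and the ratio of means was 1.90.

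*Krt8*, with which *Krt18* forms the filament, gave overlapping groups. The WT libraries held 3.25, 1.47, 1.88, 2.08 and 2.89 RPKM. Tie2-Ezh2-KO libraries held 4.42, 2.47, 1.23, 2.38 and 3.31 RPKM, and Vav-Ezh2-KO libraries spanned 1.41 to 2.06 RPKM. The log2 difference between Tie2-Ezh2-KO and WT was 0.18, with 0.12 without the libraries that stood apart and -0.0028 without Tie2-Ezh2-KO replicate 7 alone. The ratio of *Krt18* to *Krt8*, per length, spanned 4.004 to 9.30 among WT, 6.59 to 19.3 among Tie2-Ezh2-KO and 5.57 to 9.98 among Vav-Ezh2-KO libraries, and these ranges overlapped too. A gene model on the other strand, *Gm36026*, overlaps *Krt8*, and its reads could not be set apart. *Krt19*, the smallest keratin of simple epithelia, was listed above 0 in Tie2-Ezh2-WT replicate 4 only, at 0.210 RPKM.

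Per length, the order of mean levels in Tie2-Ezh2-KO EMPs was *Krt18*, *Epcam*, *Krt8*, *Cldn3*, *Cldn7*, *Cldn6*, *Cldn5*, *Cdh1* and *Cldn4*, with *Krt19* at 0. *Krt18* stood above all others in every Tie2-Ezh2-KO library, and every other pair of neighbours in this order overlapped in range. The lower part of the order rests on replicate 7. Without it the means were 0.227 RPKM for *Cldn7*, 0.211 RPKM for *Cldn5* and 0.0928 RPKM for *Cldn6*, and *Cdh1* and *Cldn4* were at 0.

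**Figure D2:**
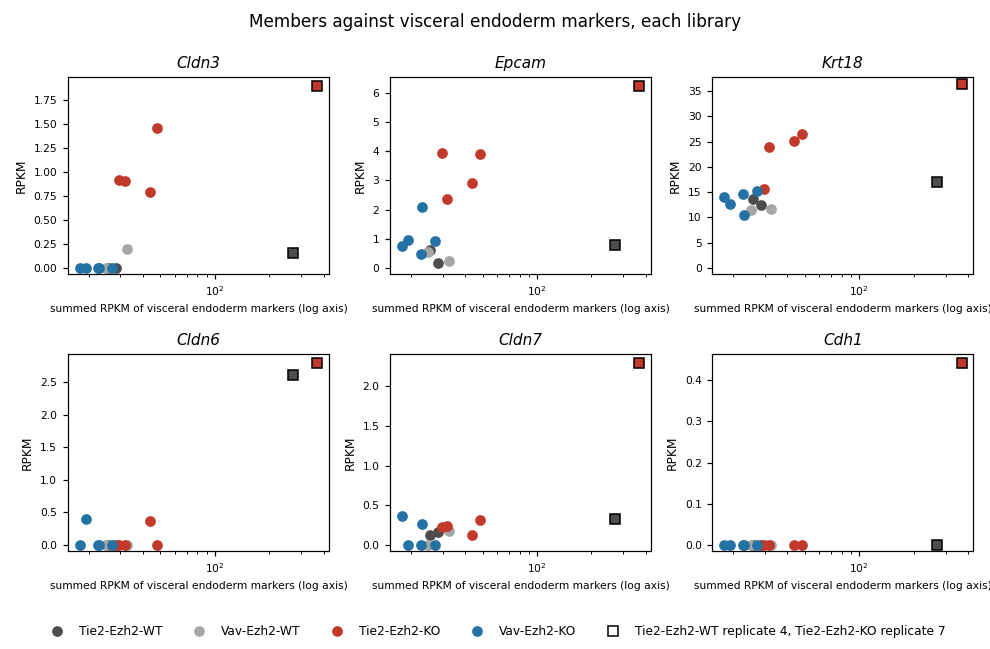
RPKM of 6 of the genes (vertical axes, linear) against the summed RPKM of 19 visceral endoderm markers (horizontal axes, log scale), 1 point per library; squares mark Tie2-Ezh2-WT replicate 4 and Tie2-Ezh2-KO replicate 7. *Cldn6* was highest in both libraries with high endoderm markers (2.62 and 2.79 RPKM). Apart from the squares, *Cldn3* and *Epcam* were higher in Tie2-Ezh2-KO libraries (marker sums 29.6 to 48.0 RPKM) than in WT libraries (25.01 to 32.6 RPKM). High sums were seen in 1 library of each of these genotypes only. These values come from the comparison that chose the genes, and the part of other cells was not tested.

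The comparison of Vav-Ezh2-KO with WT EMPs, which shares its WT libraries with the values that chose the genes, asked whether the same genes moved when *Ezh2* was deleted later, in Vav-Ezh2-KO EMPs. *Epcam* had the smallest p. Its mean was 1.03 ± 0.617 RPKM (SD, n = 5) against 0.467 ± 0.272 RPKM in WT, and its change was 0.87 (standard error 0.37, limma adjusted p = 0.612, from 0.527 to 0.862 over the alternatives), with a two-sided exact permutation p of 0.0714. *Krt18* changed by 0.02 (standard error 0.14, limma adjusted p = 0.981, two-sided exact permutation p = 0.889) and *Krt8* by -0.33 (standard error 0.24, limma adjusted p = 0.750, two-sided exact permutation p = 0.159). *Cldn3* did not pass the filter, being at 0 in all Vav-Ezh2-KO libraries and in 3 of 5 WT libraries, and with 2 of these 10 libraries above 0 its exact permutation p could not fall under 0.05, so none is given. Of the 7 genes tested with limma, 0 passed the threshold, while 0.00733% of all 13646 genes tested did. That share was 1 gene, *Sva*, which was named after its value was seen and passed the filter through Vav-Ezh2-KO only, so nothing is read from it; it had a mean of 2.92 ± 1.22 RPKM in Vav-Ezh2-KO against 0 RPKM in all WT libraries. Of the 7, 1 (*Epcam*) was at an unadjusted p under 0.05, where 1082 of the 13646 genes (7.93%) were, and 0 passed by limma-voom. Of the 9 genes above 0 in these libraries, 5 (*Cldn5*, *Cldn7*, *Epcam*, *Krt8* and *Krt18*) could reach an exact permutation p under 0.05, and 0 of these did. *Cldn3*, *Cldn4*, *Cldn6* and *Krt19* were above 0 in too few libraries for that.

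The rest of the epithelial programme was read from 89 other genes of the table, in lists of claudins, keratins, tight junctions, adherens junctions, desmosomes, epithelial regulators, and epithelial surface and trafficking proteins. In Tie2-Ezh2-KO against WT EMPs 64 of them passed the filter, and 9 were higher (limma adjusted p under 0.05) and 0 lower, 1 of the 9 (*Cldn10*) having passed the filter through Tie2-Ezh2-KO only. Of all 14154 genes tested, 2.42% were called higher and 2.73% in either direction. The lists were chosen with earlier results of these libraries known, and a gene can pass the filter through a single group, so the count is a description and nothing is read from it. Without Tie2-Ezh2-WT replicate 4 and Tie2-Ezh2-KO replicate 7 the call was kept by 4 of the 9 genes, *Cd24a* (change 1.91), *Lsr* (2.34), *Spint1* (2.46) and *Spint2* (0.89), and the count for all genes fell from 386 to 217, in a fit with fewer libraries. The genes that lost the call then had changes of 2.58 for *Cldn13* (limma adjusted p = 0.0700), 1.64 for *Dsg2* (0.148), 1.56 for *Ocln* (0.175), 1.45 for *Cldn10* (0.0898) and 1.19 for *Pkp3* (0.106), against 2.38, 1.68, 1.64, 1.71 and 1.56 with all libraries. With the Tie2-Ezh2-WT libraries as the only control 3 remained, and with no filter on low values 5. Leaving out Tie2-Ezh2-KO replicate 11 or 17, or Vav-Ezh2-WT replicate 4, also left 5.

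The calls with the lowest adjusted p were in the group of epithelial surface and trafficking proteins, where 4 of 15 tested genes were higher and 0 lower. *Lsr*, which recruits tricellulin to the corners where epithelial cells meet, had values of 2.74, 2.64, 1.12, 1.23 and 1.13 RPKM in WT. Tie2-Ezh2-KO libraries held 10.1, 5.83, 5.43, 12.6 and 10.7 RPKM, and Vav-Ezh2-KO libraries spanned 1.37 to 3.49 RPKM. Every Tie2-Ezh2-KO library lay above all others, with a change of 2.23 (standard error 0.32, limma adjusted p = 0.00107). *Spint2*, an inhibitor of membrane serine proteases, was at 23.2 to 33.7 RPKM in WT, 49.3 to 69.5 RPKM in Tie2-Ezh2-KO and 27.7 to 33.3 RPKM in Vav-Ezh2-KO libraries, a change of 1.02 (standard error 0.14, limma adjusted p = 0.000617). Its relative *Spint1* was at 0 to 0.557 RPKM in WT and 0.712 to 3.31 RPKM in Tie2-Ezh2-KO libraries, a change of 2.53 (standard error 0.45, limma adjusted p = 0.00565). *Cd24a*, a surface glycoprotein of epithelia that immature blood cells carry as well, was at 1.81 to 4.94 RPKM in WT and 11.2 to 13.3 RPKM in Tie2-Ezh2-KO libraries, a change of 1.88 (standard error 0.24, limma adjusted p = 0.000434), and 1 Vav-Ezh2-KO library, replicate 9, reached 10.7 RPKM. The *Spint1* call was lost with the Tie2-Ezh2-WT libraries as the only control (limma adjusted p = 0.0598, from 0.00242 to 0.0598 over the alternatives), and the calls of *Lsr*, *Spint2* and *Cd24a* were kept in all 21 alternatives. *Spint2* was the most abundant gene of this group (mean 38.3 RPKM).

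*Ocln* (occludin), 1 of 15 tight junction genes tested, was at 0.317 to 1.51 RPKM in WT and 1.05 to 3.66 RPKM in Tie2-Ezh2-KO libraries. Its change of 1.64 (standard error 0.41, limma adjusted p = 0.0468) kept the call in 7 of 21 alternatives (limma adjusted p from 0.0120 to 0.175). The *Ocln* call was lost without any of the libraries other than Tie2-Ezh2-KO replicate 9 and Vav-Ezh2-WT replicate 6. It was also lost with a pseudocount of 0.05, no filter on low values, no trend in eBayes, limma-voom and the Tie2-Ezh2-WT libraries as the only control. Of 7 desmosome and plakin genes tested, 2 were higher. *Pkp3*, a plakophilin of the desmosomal plaque, changed by 1.56 (standard error 0.36, limma adjusted p = 0.0282) and kept the call in 11 of 21 alternatives (limma adjusted p from 0.0134 to 0.135). The *Pkp3* call was lost without Tie2-Ezh2-KO replicate 7, 11 or 17, either Vav-Ezh2-WT library or both libraries that stood apart. It was also lost with no filter on low values, quantile normalization, limma-voom and the Tie2-Ezh2-WT libraries as the only control. The desmosomal cadherin *Dsg2* changed by 1.68 (standard error 0.40, limma adjusted p = 0.0380) and kept it in 6 of 21 (limma adjusted p from 0.00354 to 0.2), and among single libraries left out only without Tie2-Ezh2-KO replicate 9. Of 8 adherens junction genes tested, 0 passed the threshold with limma, with 4 at an unadjusted p under 0.05 (1552 of the 14154 genes, 10.97%, were) and 1 by limma-voom. *Pvrl1*, at 0.0819 RPKM or less in WT libraries, passed the filter through Tie2-Ezh2-KO only, so nothing is read from these counts. The most abundant of that list was *Ctnnb1* (beta-catenin, mean 45.6 RPKM), with means of 45.3 RPKM for Tie2-Ezh2-KO and 46.7 RPKM for WT EMPs. The most abundant tight junction gene was *F11r* (mean 9.22 RPKM), and the most abundant desmosome gene was *Perp* (mean 70.2 RPKM), also a p53 target in other cells. *Perp* had means of 57.7 RPKM in Tie2-Ezh2-KO and 78.0 RPKM in WT EMPs, a change of -0.44 (standard error 0.14, limma adjusted p = 0.134) that did not pass the threshold.

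Of 7 other claudins tested, 2 passed the threshold in Tie2-Ezh2-KO EMPs. *Cldn10*, a claudin that forms ion-selective pores, was at 0 to 0.186 RPKM in WT and 0.420 to 1.13 RPKM in Tie2-Ezh2-KO libraries, a change of 1.71 (standard error 0.34, limma adjusted p = 0.0116). It passed the filter through Tie2-Ezh2-KO only, so nothing is read from this call. It was kept with no filter on low values, and it was lost with the Tie2-Ezh2-WT libraries as the only control and without the libraries that stood apart (change 1.45, limma adjusted p = 0.0898, from 0.00821 to 0.0898 over all alternatives). *Cldn13*, which lies 70.7 kb from *Cldn3*, was at 0 to 1.62 RPKM in WT and 1.78 to 5.16 RPKM in Tie2-Ezh2-KO libraries, a change of 2.38 (standard error 0.59, limma adjusted p = 0.0442) that was kept in 6 of 21 alternatives (limma adjusted p from 0.0236 to 0.195), and among single libraries left out only without Tie2-Ezh2-KO replicate 13 or Tie2-Ezh2-WT replicate 4 or 12. *Cldn15*, a claudin that forms cation pores in the gut, had means of 1.53 RPKM in Tie2-Ezh2-KO and 3.79 RPKM in WT EMPs, a change of -1.38 (standard error 0.52, limma adjusted p = 0.263) that did not pass. The most abundant entry was the one listed as *Cldn25* (mean 58.3 RPKM), an older symbol of *Cldnd1*, which is a claudin-domain protein and not a classical claudin, so its identity is uncertain. Of 6 other keratins tested, 0 passed with limma, with 1 at an unadjusted p under 0.05 and 0 by limma-voom, and the most abundant was *Krt10* (mean 1.48 RPKM). *Krt1*, at 0 in all WT libraries, and *Krt222*, at 0.0925 RPKM or less there, passed the filter through Tie2-Ezh2-KO only, so nothing is read from these keratin counts. *Krt7*, a keratin of simple epithelia, was highest in the libraries that stood apart, at 1.94 RPKM in Tie2-Ezh2-WT replicate 4 and 1.07 RPKM in Tie2-Ezh2-KO replicate 7, and was named after its values were seen.

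Transcription factors and splicing regulators that direct epithelial genes were low. Of 6 tested, 0 passed with limma, with 1 at an unadjusted p under 0.05 and 0 by limma-voom. *Klf5* was the most abundant (mean 1.10 RPKM). *Grhl2* and *Grhl3* were each read in 1 of 15 libraries, at 0.0986 and 0.107 RPKM, and the splicing regulator *Esrp1* in 3, at up to 0.130 RPKM. *Ovol2* was read in 3 Tie2-Ezh2-KO libraries, at 0.220 to 0.409 RPKM, and in no other library (change 0.78, standard error 0.33, limma adjusted p = 0.354). It passed the filter through Tie2-Ezh2-KO only, as did *Ovol1* and *Elf3*, so nothing is read from the counts of this list. These regulators were named after their values were seen. Of the repressors of epithelial genes *Snai1*, *Snai2*, *Zeb1*, *Zeb2*, *Twist1* and *Twist2*, 0 of 6 passed with limma. In this list 2 were at an unadjusted p under 0.05 and 0 passed by limma-voom, and *Zeb2* was the most abundant (mean 2.42 RPKM). *Snai1*, *Snai2* and *Twist2* passed the filter through Tie2-Ezh2-KO only, so nothing is read from these counts. Genes at 0 in all 15 libraries were *Cldn20*, *Krt23*, *Krt27*, *Marveld3*, *Cdh3*, *Ppl* and *Ehf*.

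**Figure D3:**
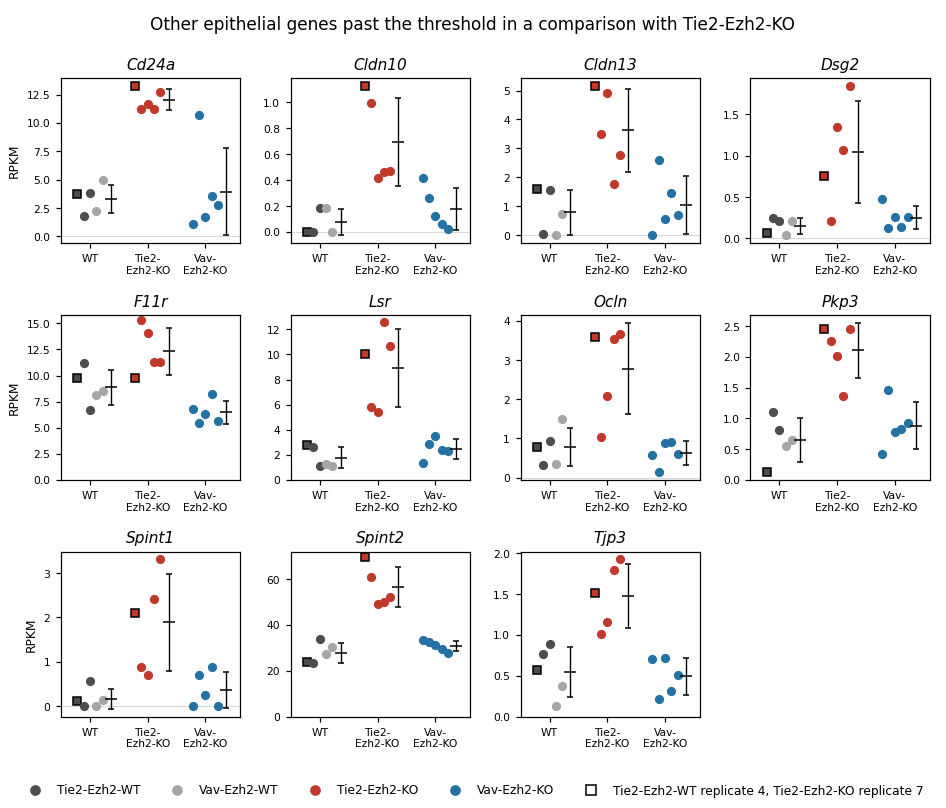
RPKM (vertical axis, linear) of the other epithelial genes past the threshold in Tie2-Ezh2-KO against WT or against Vav-Ezh2-KO, in each library by group; points are libraries, horizontal marks with bars are mean ± SD (n = 5 per group), and squares mark Tie2-Ezh2-WT replicate 4 and Tie2-Ezh2-KO replicate 7. For *Lsr*, *Spint2*, *Cd24a*, *Tjp3* and *Cldn10* the 5 Tie2-Ezh2-KO libraries lay above all others, for *Cldn10* by a narrow margin (0.420 against 0.416 RPKM).

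In Vav-Ezh2-KO against WT EMPs 54 of the 89 genes passed the filter and 0 passed the threshold with limma, with 5 at an unadjusted p under 0.05 and 0 by limma-voom, where 7.93% of all genes were at an unadjusted p under 0.05. The difference between the knockouts was tested directly. Of 62 genes tested, 8 were higher in Tie2-Ezh2-KO than in Vav-Ezh2-KO EMPs and 0 lower, where 2.63% of all 14120 genes tested were higher and 3.51% were called in either direction. As above, this count is a description of lists chosen with earlier results known. The 8 were *Cd24a* (change 1.97, standard error 0.41, limma adjusted p = 0.0151), *Lsr* (1.75, 0.28 and 0.00265), *Spint1* (2.04, 0.52 and 0.0456), *Spint2* (0.85, 0.12 and 0.000810), *Ocln* (1.86, 0.40 and 0.0164), *F11r* (0.90, 0.17 and 0.00846), *Tjp3* (1.32, 0.31 and 0.0274) and *Pkp3* (1.14, 0.30 and 0.0486). *F11r*, a junctional adhesion molecule, and *Tjp3*, a scaffold of the tight junction that overlaps *Apba3* and is uncertain for that reason, had not passed against WT (limma adjusted p = 0.267 and 0.0772). The calls of *Lsr*, *Spint2*, *Ocln* and *F11r* were kept in all 19 alternatives and that of *Cd24a* in 18 (limma adjusted p = 0.0510 with no filter on low values, the highest of a range from 0.000600). That of *Tjp3* was lost without Tie2-Ezh2-KO replicate 7, 13 or 17 or Vav-Ezh2-KO replicate 9, 26 or 28 (limma adjusted p from 0.0153 to 0.0699 over the alternatives). That of *Spint1* was lost with a pseudocount of 0.05, with no filter on low values, with no trend in eBayes, and without Tie2-Ezh2-KO replicate 7, 13 or 17 or Vav-Ezh2-KO replicate 1, 10 or 28 (from 0.0225 to 0.123). That of *Pkp3* was kept in 5, and among single libraries left out only without Tie2-Ezh2-KO replicate 13 or Vav-Ezh2-KO replicate 9 (from 0.0303 to 0.118).

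Markers of other cell types that moved with the Tie2-Ezh2-KO libraries were given the same test. Of all 14154 genes tested against WT, 2.42% were called higher, and the counts below stand beside this share. Of 16 visceral endoderm markers tested against WT, 1 was higher. This was *Amn*, the membrane anchor of the cubilin receptor. It read 4.66, 1.67, 1.52, 2.08 and 2.21 RPKM across the Tie2-Ezh2-KO libraries and 0 to 0.798 RPKM across WT (change 3.01, standard error 0.45, limma adjusted p = 0.00155). Without the libraries that stood apart the change was 3.19. *Amn* then passed the filter through Tie2-Ezh2-KO only, so the test of that fit is not given. Its partner *Cubn* was at 0.637 RPKM in Tie2-Ezh2-KO replicate 7 and at 0.0289 RPKM or less in the other Tie2-Ezh2-KO libraries. Of 5 trophoblast markers tested, 1 was higher, *Ascl2*, a transcription factor of the placenta (change 3.08, standard error 0.43, limma adjusted p = 0.000875; 3.08 and 0.00746 without the libraries that stood apart), and *Elf5* was at 0 in all libraries. The 8 trophoblast markers measured summed to 0.371 to 1.96 RPKM in WT, 5.15 to 13.3 RPKM in Tie2-Ezh2-KO and 1.36 to 2.13 RPKM in Vav-Ezh2-KO libraries, with *Ascl2* the most abundant.

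Of 6 erythroid markers 1 was higher, the embryonic globin *Hba-x*, with a mean of 166.5 ± 146.4 RPKM in Tie2-Ezh2-KO and 1.36 ± 0.858 RPKM in WT EMPs (change 6.33, standard error 0.62, limma adjusted p = 8.88e-05, up to 0.0839 with limma-voom, the only alternative of 21 in which the call was lost), and the list summed to 140 to 220 RPKM in WT, 264 to 607 RPKM in Tie2-Ezh2-KO and 141 to 195 RPKM in Vav-Ezh2-KO libraries, with *Klf1* the most abundant over all libraries. *Hba-x* alone held 32.9 to 338.8 RPKM of these sums in Tie2-Ezh2-KO libraries and stood above *Klf1* in replicates 9 and 11. Of the 6, 4 were at an unadjusted p under 0.05. Of 4 mesothelial markers 1 passed the threshold, *Aldh1a2*, at 0.116 to 0.887 RPKM in Tie2-Ezh2-KO and 0 RPKM in WT libraries (change 1.30, standard error 0.32, limma adjusted p = 0.0471), a call kept in 8 of 21 alternatives (limma adjusted p from 0.0105 to 0.231), and among single libraries left out only without Tie2-Ezh2-KO replicate 9 or 17. As *Aldh1a2* passed the filter through Tie2-Ezh2-KO only, nothing is read from this call. The 5 mesothelial markers measured summed to at most 1.68 RPKM in any library, with *Lrrn4* the most abundant. Of 9 endothelial markers 0 passed with limma, with 3 at an unadjusted p under 0.05 and 0 by limma-voom, and they summed to 151 to 188 RPKM in WT, 155 to 179 RPKM in Tie2-Ezh2-KO and 134 to 174 RPKM in Vav-Ezh2-KO libraries, with *Egfl7* the most abundant. Of 5 macrophage markers 0 passed against WT with limma, with 2 at an unadjusted p under 0.05 and 0 by limma-voom. *Cd68*, the most abundant, was lower in Tie2-Ezh2-KO than in Vav-Ezh2-KO EMPs (change -0.71, standard error 0.17, limma adjusted p = 0.0333, from 0.00898 to 0.0940 over the alternatives), a call kept in 10 of 19 alternatives and lost with limma-voom, with no filter on low values, with no trend in eBayes, and without Tie2-Ezh2-KO replicate 7, 11 or 17 or Vav-Ezh2-KO replicate 1, 26 or 28, and *C1qa* was at 0 in all libraries. Macrophage markers summed to 10.6 to 27.1 RPKM in WT, 7.73 to 19.7 RPKM in Tie2-Ezh2-KO and 16.9 to 24.6 RPKM in Vav-Ezh2-KO libraries. Of 3 mesenchymal markers tested 0 passed with limma, 0 were at an unadjusted p under 0.05 and 0 passed by limma-voom, and the 6 measured summed to at most 2.80 RPKM, with *Pdgfrb* the most abundant. *Ascl2* and *Hba-x* were also higher against Vav-Ezh2-KO (limma adjusted p = 0.000373 and 0.000422). *Amn* passed the filter through Tie2-Ezh2-KO only there, being at 0.176 RPKM or less in Vav-Ezh2-KO libraries, so its test is not given. The part of other cell types in the epithelial values was not tested.

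By pattern over the 15 libraries, the genes most like *Cldn3* among 14393 compared were *Ppp1r1a* (Spearman rho 0.971, Pearson r 0.950), *Lama4* (0.935 and 0.954), *Cbr3* (0.923 and 0.917), *Amn* (0.917 and 0.956) and *Laptm4b* (0.914 and 0.884). Those most like *Epcam* were *Jph1* (0.968 and 0.930), *Lsr* (0.957 and 0.927), *1810019J16Rik* (0.926 and 0.921), *Olfm1* (0.921 and 0.9) and *Esx1* (0.904 and 0.916). *Cldn3* and *Epcam* were related by a Spearman rho of 0.709 and *Cldn3* and *Krt18* by 0.759, whereas *Cldn3* and *Cldn6* gave 0.321. These values describe 15 libraries that fall into 3 genotypes and share the difference between them.

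Genes that neighbour *Cldn3* on chromosome 5 were compared with it. *Cldn13* was higher (limma adjusted p = 0.0442), a call kept in 6 of 21 alternatives only. *Cldn4*, which lies between *Cldn13* and *Cldn3*, was near 0. On the other side *Abhd11*, at a distance of 21.7 kb, had means of 56.3 RPKM for WT and 61.4 RPKM for Tie2-Ezh2-KO EMPs (change 0.12, standard error 0.11, limma adjusted p = 0.869), and *Stx1a*, at 36.0 kb, had means of 1.46 and 1.47 RPKM (change 0.20, standard error 0.39, limma adjusted p = 0.952).

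Promoters of the genes that were higher together are shown because E-boxes of the kind that Snail and Zeb repressors bind lie in many epithelial promoters. RefSeq entries (GRCm38.p6) were found for 8 of the 10 genes, in 9 promoters, and not for *Cdh1* and *Krt19*. The 250 bases before the start were searched for CAGGTG on either strand, which reads CACCTG on the other. This motif was present in 17.2% of the 32851 promoters in the table and at least 2 times in 2.06%. It was present for 6 of the 8 genes, and 2 of these, *Epcam* and *Cldn7*, had 2 copies in a promoter. *Cldn3* and *Cldn5* had none. The *Cldn3* promoter (chr5:134985964-134986213, plus strand) held no match, that of *Epcam* (chr17:87635729-87635978, plus strand) held matches 187 and 19 bases before the start, and that of *Krt18* (chr15:102027966-102028215, plus strand) held a match 214 bases before it. The promoter of *Lsr* (chr7:30973470-30973719, minus strand), the list gene most like *Epcam*, held 4. Of the 5 other epithelial genes past the threshold against WT that had a promoter in the table, 3 held the motif: *Lsr*, *Spint2* with 3 copies, and *Ocln* with 2 in 1 of its 2 promoters. *Spint1* and both promoters of *Cldn10* held none. For *Spint2* and 1 promoter of *Cldn10* the transcribed part was not found in a transcript of the same gene, whereas it was found for 75.12% of all promoters. The background shares are per promoter, whereas these counts are per gene. Capitals mark the motif, and a match is a description of the letters only.
Cldn3: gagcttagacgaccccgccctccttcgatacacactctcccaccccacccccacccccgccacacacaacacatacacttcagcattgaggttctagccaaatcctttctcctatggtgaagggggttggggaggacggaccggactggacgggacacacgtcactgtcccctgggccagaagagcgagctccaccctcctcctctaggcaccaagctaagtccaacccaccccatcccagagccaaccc
Epcam: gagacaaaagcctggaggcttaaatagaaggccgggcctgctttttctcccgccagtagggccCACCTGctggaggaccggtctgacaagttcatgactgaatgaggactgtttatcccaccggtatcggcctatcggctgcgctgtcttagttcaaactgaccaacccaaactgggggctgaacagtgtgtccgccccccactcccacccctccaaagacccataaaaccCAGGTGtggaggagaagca
Krt18: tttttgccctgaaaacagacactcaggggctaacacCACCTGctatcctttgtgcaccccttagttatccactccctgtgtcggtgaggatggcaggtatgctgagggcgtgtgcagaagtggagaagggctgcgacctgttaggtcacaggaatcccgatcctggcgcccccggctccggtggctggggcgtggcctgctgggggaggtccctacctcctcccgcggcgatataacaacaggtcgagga
Lsr: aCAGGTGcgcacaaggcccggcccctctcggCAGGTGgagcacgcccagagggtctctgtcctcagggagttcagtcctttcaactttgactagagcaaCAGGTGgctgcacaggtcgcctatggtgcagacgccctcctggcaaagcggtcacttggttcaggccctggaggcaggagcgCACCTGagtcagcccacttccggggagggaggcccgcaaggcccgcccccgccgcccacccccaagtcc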

How the data were processed

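RNA-seq was analysed in 15 libraries of E10.5 YS EMPs. The authors aligned 75 bp single-end reads to GRCm38/mm10 with TopHat2 2.0.13, counted reads with featureCounts and deposited RPKM on a linear scale. DESeq2, the authors' own test of counts, was not run here; reads recovered from RPKM were tested with limma-voom, as an alternative. Reads per gene were recovered from the RPKM steps for 16875 genes above 0, with 2 not recovered. The read number of a gene above 0 in a single library depends on the gene length assumed. For this reason that of *Krt19* is not printed, and that of *Cdh1* holds at the assumed length only. The test was limma 3.58.1 (R 4.3.3, lmFit, eBayes with trend) of log2 RPKM values with a pseudocount of 0.2. Genes that exceeded 0.2 RPKM in any library compared were kept, p-values were adjusted over all of them by the Benjamini-Hochberg method, and the threshold was 0.05. Single genes in Vav-Ezh2-KO against WT also had a two-sided exact permutation test (scipy 1.17.1, Python 3.11.15) over 252 divisions of the libraries. The code was tested on simulated data, in which most genes changed 2-fold were not called, so a gene that missed the threshold can still have changed. Alternatives were pseudocounts of 1 and 0.05, no filter or a filter in 3 libraries, no trend in eBayes, normalization by quantiles or by a common median, all 15 libraries in a single fit, the corresponding WT only, limma-voom on recovered reads and leaving out each library. The fit without both libraries with high endoderm markers was added after seeing the data.

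The members and gene lists were chosen with earlier results of these data known. Genes named were the 10 members, *Ezh2*, list genes past the threshold in any comparison, the most abundant gene of each list and list genes at 0, cell type markers past the threshold, and the 5 genes most like *Cldn3* and *Epcam*. *Afp*, *Apoa1*, *Hnf4a*, *Foxa2*, *Lrp2*, *Cubn*, *Krt1*, *Krt7*, *Krt222*, *Pvrl1*, *Cldn15*, *Grhl2*, *Grhl3*, *Esrp1*, *Ovol2* and the neighbours of *Cldn3* were named after their values were seen. *Csf1r* is in both the EMP and the macrophage list. List genes with no entry in the table were *Pkp1*, *Trp63*, *Upk1b*, *Msln*, *Sox17*, *Tpbpa* and *Epb42*. TopHat2 kept 1 alignment per read, so near-identical genes could share reads.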

Additional observations from a re-analysis of the deposited data

Results flagged for a closer look

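In 27 groups of 5 libraries examined, taking WT as 1 group, 11 had a library far from the others, where chance gives about 1 in 20 for normally distributed values. In 6 of the 11 a single library was above 0 and the rest at 0, which this rule always picks out, so that rate does not hold for them. Among the 11 were the highest libraries for *Cldn4* (0.106 RPKM), *Cldn6* (2.62 RPKM), *Krt19* (0.210 RPKM) and the summed visceral endoderm markers (270 RPKM) in Tie2-Ezh2-WT replicate 4. In Tie2-Ezh2-KO replicate 7 they were *Cldn4* (0.0347 RPKM), *Cldn6* (2.79 RPKM), *Cldn7* (2.29 RPKM), *Cdh1* (0.441 RPKM) and the summed visceral endoderm markers (368 RPKM). The others were *Cldn5* in Tie2-Ezh2-WT replicate 12 (0.293 RPKM) and *Cldn6* in Vav-Ezh2-KO replicate 10 (0.394 RPKM). Of the 11, 9 fell in the 2 libraries with high endoderm markers, and the part of other cells in these values was not tested.

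Of 62 other epithelial genes tested between the knockouts, 8 were higher in Tie2-Ezh2-KO than in Vav-Ezh2-KO EMPs by limma, where 2.63% of all genes tested were. The lists were chosen with earlier results known, so this count is a description. The calls of *Tjp3*, *Spint1* and *Pkp3* were lost when certain single libraries were left out, that of *Pkp3* being kept in 5 of 19 alternatives. The log2 differences were 0.90 for *F11r*, 1.97 for *Cd24a*, 1.32 for *Tjp3*, 1.86 for *Ocln*, 2.04 for *Spint1*, 0.85 for *Spint2*, 1.75 for *Lsr* and 1.14 for *Pkp3*.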

How the results depend on the processing

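In Tie2-Ezh2-KO against WT, 386 genes passed the threshold, 310 to 490 under the other settings apart from 187 with the corresponding WT libraries only and 217 without both libraries with high endoderm markers, where fewer libraries were tested. Leaving out each library gave 262 to 438. For the other epithelial genes the count was 9, with 5 when no filter was applied, 3 with the corresponding WT only and 4 without both libraries, and 5 to 11 when each library was left out. All were higher in every setting. In Vav-Ezh2-KO against WT the count was 1, 2 with the corresponding WT only and 1 to 2 when each library was left out (2 without Tie2-Ezh2-WT replicate 10 or 12 or Vav-Ezh2-WT replicate 4). Tie2-Ezh2-KO against Vav-Ezh2-KO gave 495, with 320 (without Vav-Ezh2-KO replicate 28) to 969 (without Tie2-Ezh2-KO replicate 9) when each library was left out. Quantile normalization changed the share of higher calls there from 75.2% to 63.8%. The causes were not tested.

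In Tie2-Ezh2-KO against WT the changes of *Cldn3*, *Epcam* and *Krt18* kept their direction in all 21 alternatives, from 1.01 to 4.73, 1.70 to 3.46 and 0.76 to 1.06 on the log2 scale. Those of *Cldn5* (0.17 to 1.61) and *Cldn7* (0.29 to 1.43), whose groups overlapped, did so too. *Cdh1* and *Krt19*, each above 0 in 1 library, kept theirs in the 18 alternatives fitted. Those of *Cldn6* (-0.38 to 1.31) and *Krt8* (-0.0028 to 0.42) turned. The lowest and highest values for *Cldn3* came with a pseudocount of 1 and with limma-voom. No member passed the threshold in Vav-Ezh2-KO against WT under any alternative fitted. No paired analysis was made, because each replicate is an individual YS and the sample labels used give no litter or experiment by which to pair libraries. Values near 0.2 RPKM rest on few reads.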
